A study of Saccharomyces cerevisiae with 3 samples.

Results

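The genes described here encode the cytoskeleton of budding yeast: actin and the proteins that turn it over or bind its filaments, the Arp2/3 complex, coat proteins of cortical actin patches, myosins with their light chains, septins and tubulins. They were chosen by name as 40 open reading frames (ORFs), out of 6207 ORFs in the deposited table, and all 40 had a row (VRP1 under the older name YLR337W). Total RNA of Saccharomyces cerevisiae cells with and without caspofungin was compared on 2-colour DNA microarrays, on which each array carries both RNAs in different dyes. All cells were of the strain MID2extWSC1cyt in the BY4741 background, grown in YEPD at 24 °C. The treated part of a culture was exposed to caspofungin at 15 ng/ml for 2 h, and the untreated part grew on without it. By its name the strain fuses the outer domain of one wall sensor, Mid2, to the inner domain of another, Wsc1. Both parts of each culture carried this chimera, so nothing here compares it with an unmodified strain, and the sources used here do not say how the chimera is expressed. Caspofungin blocks the synthase of β-1,3-glucan, the polymer that gives the yeast wall its strength.

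Actin in yeast forms cortical patches, where endocytic vesicles pinch off, cables, along which myosins carry secretory cargo to the bud, and a contractile ring at the bud neck. Patches are branched networks nucleated by the Arp2/3 complex, cables are bundles stabilised by tropomyosin, and septins form a collar at the neck that marks the site of division. Tubulins build the spindle and the cytoplasmic microtubules that place the nucleus. Cell wall synthesis is tied to this system, because the glucan synthase and other wall enzymes reach the growing bud along actin cables.

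The arrays titled 1, 2 and 4 were analysed. Caspofungin RNA was labelled with Cy3 on array 1 and with Cy5 on both others. Per the labels 2 cultures were each hybridised with the dyes exchanged, so array 1 shares a culture with 1 of the other arrays. The deposited values are log2 ratios, and the sources used here do not say whether they are caspofungin over untreated or Cy5 over Cy3. Signs are therefore those of the deposited scale. If the values are caspofungin over untreated, which is the reading used for the fits, positive means higher with caspofungin. If they are Cy5 over Cy3, array 1 has to be turned. The values were not centred on 0: the medians of all ORFs measured were −0.24, −0.14 and −0.93 on arrays 1, 2 and 4, and the SDs were 0.809, 0.436 and 1.55. Of the mating-type markers, 4 of 7 a-specific genes and 0 of 4 alpha-specific genes had a value, beside 62.4% of all ORFs, and since an empty cell is not a level these counts do not check the mating type. Of the 4 marker genes inactivated in BY4741 by deletion of all or part of the gene, URA3 and MET17 had no value. HIS3 and LEU2 had values on arrays 1 and 2. The sources used here do not say what the spots cover or which marker the chimera carries.

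Cytoskeleton genes were measured on array 1 in 30 of 40 cases (75.0%), on array 2 in 25 (62.5%) and on array 4 in 11 (27.5%), where all ORFs had 60.4%, 45.6% and 13.8%. In all, 25 had a value on arrays 1 and 2, 11 of these also on array 4, 5 had one on array 1 only, and 10 had none. Of all ORFs, 45.4% had a value on arrays 1 and 2, 11.6% on all 3 and 37.6% on none. The 10 without a value were TPM2 (YIL138C), CRN1 (YLR429W), LAS17 (YOR181W), VRP1 (YLR337C), SLA1 (YBL007C), SLA2 (YNL243W), PAN1 (YIR006C), MYO1 (YHR023W), MYO4 (YAL029C) and CDC11 (YJR076C). They included 5 of the 6 patch genes (coat proteins and activators of the Arp2/3 complex) and 2 of the 5 myosin heavy chain genes. The sources used here do not name the filter behind empty cells, so an empty cell says nothing about the level of the transcript.

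**Figure D1:**
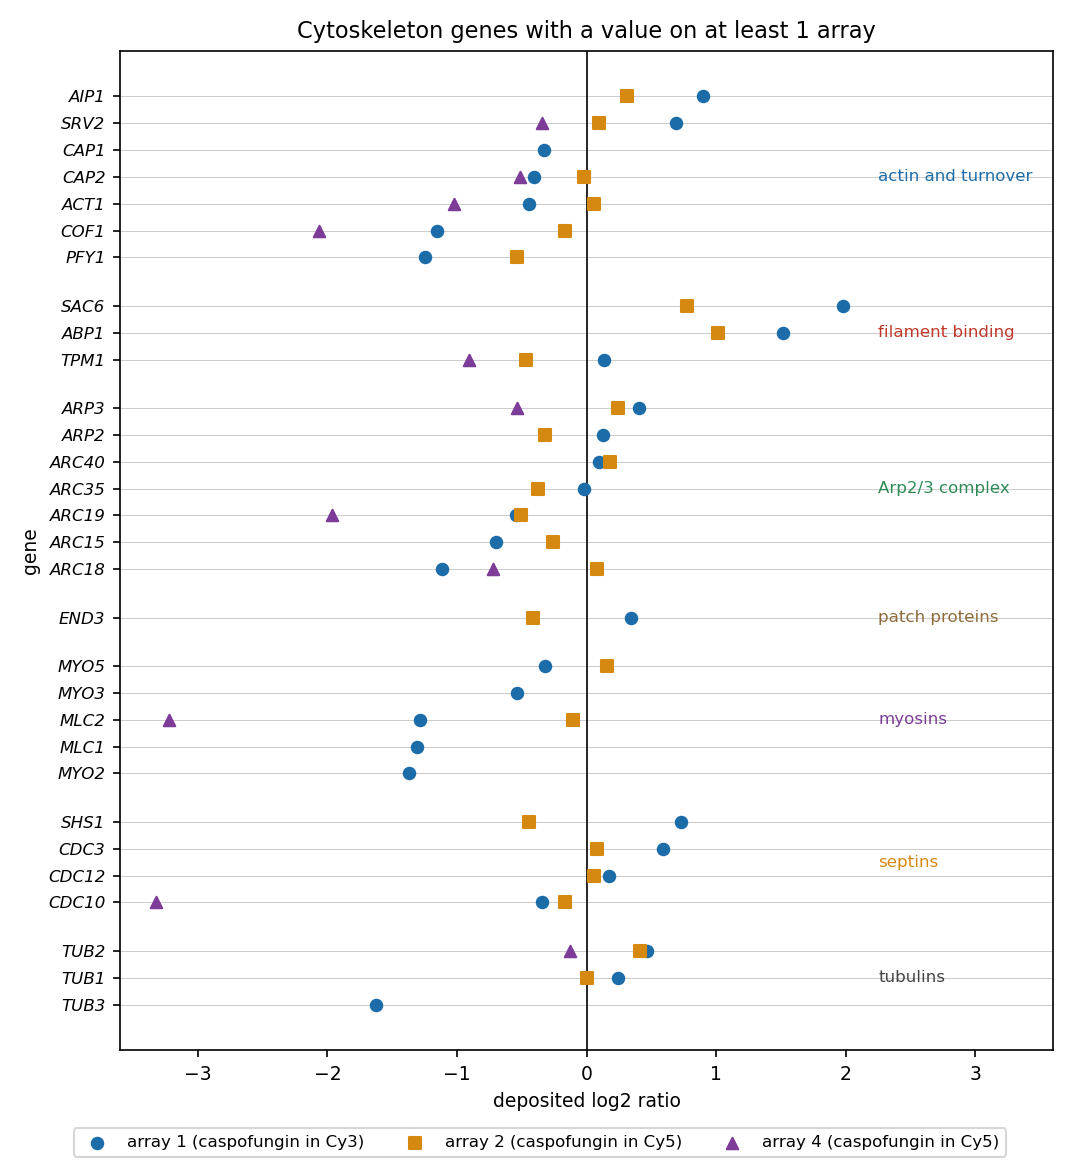
Deposited log2 ratio (horizontal) of each of the 30 cytoskeleton genes with a value, on array 1 (circles), array 2 (squares) and array 4 (triangles), grouped by role. SAC6 and ABP1 lie furthest to the right on arrays 1 and 2, and all 11 values on array 4 are below 0.

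No cytoskeleton gene passed the test. The values of arrays 1 and 2 were averaged, so that each dye orientation counted once, and tested against 0 with limma over the 2818 ORFs on both arrays. Of the 25 cytoskeleton genes, 0 had a Benjamini-Hochberg adjusted p under 0.05, beside 0.887% of all ORFs tested. At an unadjusted p under 0.05 there were 3 (SAC6, ABP1 and PFY1), beside 13.5% of all ORFs. Over arrays 1, 2 and 4, with a term for the dyes, 0 of 11 were called, beside 0.277% of the 723 ORFs tested, and 1 (MLC2) had an unadjusted p under 0.05, beside 3.18%. The median of the 25 means was −0.08, where that of all 2818 ORFs was −0.18. With each array centred on its median, these became 0.067 and −0.04. The median of the 11 fitted values was −0.46, where that of all 723 ORFs was −0.36. Of the 25 genes, 10 were positive on both arrays, 8 were negative on both and 7 had opposite signs, where 20.5%, 47.1% and 32.5% of all ORFs did so. After median centring 10 were positive on both and 5 negative on both. The shares of all ORFs by sign after centring were not counted, here or for the lists below. As deposited, the mean was negative for 14 of the 25, beside 66.8% of all ORFs.

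The genes with the largest positive values were those of 2 filament-binding proteins. ABP1 (YCR088W) encodes a patch protein that binds actin filaments and activates the Arp2/3 complex. It had 1.52 on array 1 and 1.01 on array 2 and no value on array 4. Its mean of 1.27 ± 0.27 (SE moderated by limma over all ORFs, 2 arrays) is 2.40-fold as a ratio. It was rank 48 from the top among 2818 ORFs, but missed the threshold (limma adjusted p = 0.0795). SAC6 (YDR129C) encodes fimbrin, which bundles filaments in patches and cables. It had 1.98 on array 1 and 0.77 on array 2, again with no value on array 4. Its mean of 1.38 ± 0.33 (SE, 2 arrays) is 2.60-fold as a ratio and was rank 38, with a limma adjusted p = 0.101. On the deposited scale both genes were thus high on both arrays, of opposite dye orientation, and stood at percentiles 96.6 to 99.3 of each array. They were also the only 2 of the 25 genes with a mean of at least 1 and the same sign on both arrays, beside 3.05% of all ORFs, and 0 had a mean of −1 or lower, beside 0.639%.

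The call for ABP1 and SAC6 turned on how the arrays were centred. With each array centred on its median, which moved the median of all ORFs from −0.18 to −0.04, ABP1 had 1.41 (limma adjusted p = 0.0241) and SAC6 had 1.52 (limma adjusted p = 0.0314). They were then 2 of 25 cytoskeleton genes called positive, beside 2.56% of all ORFs. With the spread of the arrays made equal as well, the same 2 were called, beside 4.51%. With array 1 turned, as the Cy5 over Cy3 reading requires, their means were −0.25 and −0.60. Tropomyosin 1, the main coat of actin cables, did not share their values: TPM1 (YNL079C) had 0.13, −0.47 and −0.91 on arrays 1, 2 and 4, with a mean of −0.17 on arrays 1 and 2.

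**Figure D2:**
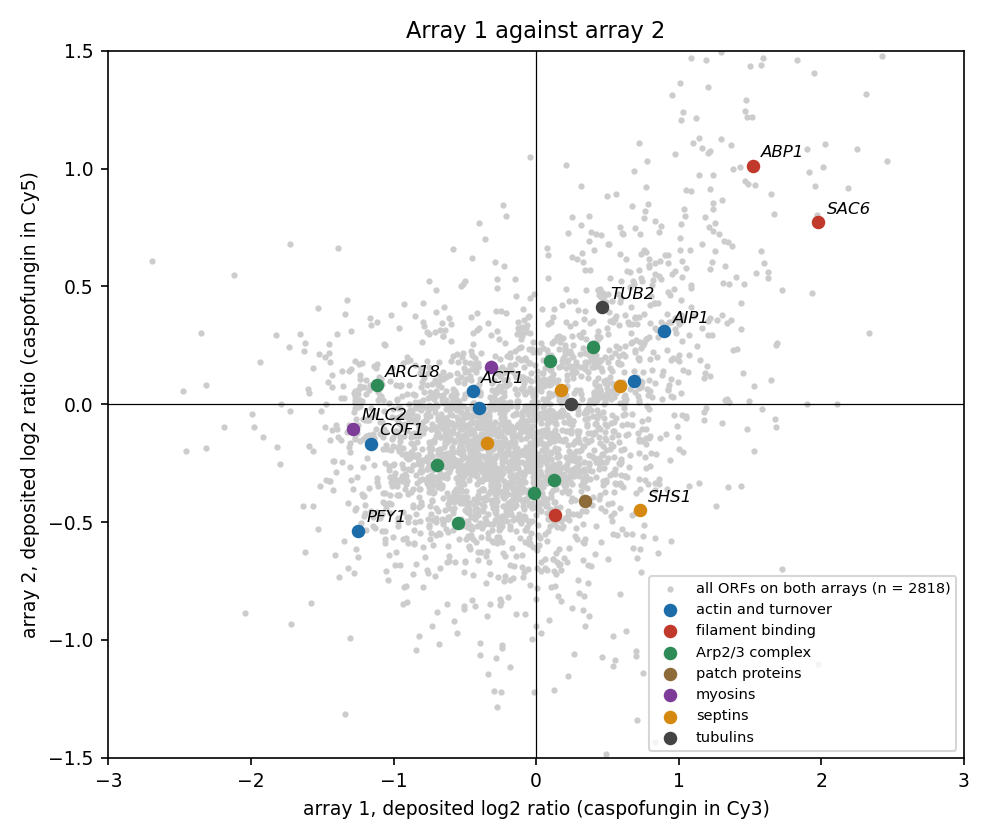
Deposited log2 ratio on array 2 (vertical) against array 1 (horizontal) for 25 cytoskeleton genes, coloured by role, over all 2818 ORFs on both arrays (grey, of which 21 lie outside the axes). ABP1 and SAC6 are in the upper right, and PFY1, the lowest by mean, is in the lower left.

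Actin and the proteins that turn over its monomers went both ways. ACT1 (YFL039C), the single gene of conventional actin, had −0.44, 0.06 and −1.02 on arrays 1, 2 and 4, and so crossed 0. Its fitted value was −0.46 (limma adjusted p = 0.971), with the SE of 0.73 that every ORF had in this fit. PFY1 (YOR122C) encodes profilin, which binds actin monomers and feeds them to formins. It had −1.25 and −0.54 on arrays 1 and 2, with a mean of −0.89 ± 0.29 (SE, 2 arrays; limma adjusted p = 0.260), the lowest of the 25. COF1 (YLL050C) encodes cofilin, which severs old filaments. It had −1.16, −0.17 and −2.06, negative on each array but small on array 2, and its fitted value was −1.14 (limma adjusted p = 0.868), or −0.66 without array 4.

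The partners of cofilin had positive values on arrays 1 and 2. AIP1 (YMR092C), whose protein helps cofilin to take filaments apart, had 0.90 and 0.31, with a mean of 0.61 (limma adjusted p = 0.385). SRV2 (YNL138W), the cyclase-associated protein that recycles monomers from cofilin, had 0.69 and 0.10 and then −0.35 on array 4, with a fitted value of 0.28. Capping protein, a dimer that closes the growing filament end, was measured through both subunits. CAP2 (YIL034C) had −0.40, −0.02 and −0.51, and CAP1 (YKL007W) had −0.33 on array 1 only. The 6 genes of this class on arrays 1 and 2 split into 2 positive and 4 negative means around a median of −0.20, which was −0.06 after median centring and 0.02 with equal spread as well.

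All 7 Arp2/3 genes had values on arrays 1 and 2, and no other class was measured in full there. The complex starts new branches on the sides of filaments, and its 2 actin-related subunits, ARP2 (YDL029W) and ARP3 (YJR065C), form the seed. ARP3 had 0.40, 0.24 and −0.54 on arrays 1, 2 and 4, and ARP2 had 0.13 and −0.32 on arrays 1 and 2. ARC40 (YBR234C) had 0.10 and 0.18, and ARC35 (YNR035C) had −0.02 and −0.37. The 3 small subunits had the lowest means of the complex. ARC19 (YKL013C) had −0.55, −0.50 and −1.96, ARC15 (YIL062C) had −0.70 and −0.26 on arrays 1 and 2, and ARC18 (YLR370C) had −1.12, 0.08 and −0.72. The subunits thus did not share a sign, and their means on arrays 1 and 2 ran from −0.53 (ARC19) to 0.32 (ARP3), with a median of −0.20, or −0.05 after median centring. The median of all ORFs was −0.18, or −0.04 after centring. The smallest limma adjusted p among the 7 was that of ARC19 (adjusted p = 0.408).

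Of the 6 patch genes, only END3 (YNL084C) had values. Its protein acts with Pan1 and Sla1 in the coat that recruits the actin machinery. END3 had 0.34 on array 1 and −0.41 on array 2, of opposite sign, with a mean of −0.03.

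Myosin genes were negative wherever array 1 gave a value, but few were measured again: 5 of 5 were negative there, beside 63.8% of all ORFs on that array. MLC2 (YPR188C) encodes a light chain of Myo1, the myosin of the contractile ring. It had −1.28, −0.10 and −3.22 on arrays 1, 2 and 4, negative on each. Its fitted value of −1.47 ± 0.73 (SE, 3 arrays, the same for every ORF) was rank 712 of 723 from the top. It missed the threshold (limma adjusted p = 0.868). That value rested on array 4, without which it was −0.69, and on the reading of the ratio, since it was −0.19 with array 1 turned, and on array 2 the gene stood at percentile 54.6. MLC1 (YGL106W), the light chain shared by Myo1 and the cargo motor Myo2, had −1.31 on array 1 only, and MYO2 (YOR326W) had −1.37 there. The type I myosins of cortical patches were nearer 0. MYO3 (YKL129C) had −0.54 on array 1 only, and MYO5 (YMR109W) had −0.32 and 0.16 on arrays 1 and 2.

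The 5 genes read on array 1 only (CAP1, MYO2, MYO3, MLC1 and TUB3) were all negative, with a median of −1.31. Of all 908 ORFs with a value on array 1 only, 75.4% were negative there, and their median was −0.60, against −0.15 for ORFs also on array 2. A missing second value thus went with lower values on array 1 across the whole table, and its part in the values of these genes was not tested.

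Septin genes had means from −0.25 (CDC10) to 0.34 (CDC3) on arrays 1 and 2, while single values there ran from −0.45 to 0.73. CDC3 (YLR314C) had 0.59 and 0.08, and CDC12 (YHR107C) had 0.17 and 0.06, positive on both. SHS1 (YDL225W), a further septin of the collar, had 0.73 and −0.45, of opposite sign. CDC10 (YCR002C) had −0.34 and −0.16 there but −3.32 on array 4, the lowest of the 11 cytoskeleton values on that array. Its fitted value was −1.04 (limma adjusted p = 0.868) and was −0.25 without array 4. The septin median on arrays 1 and 2 was 0.13 over 4 genes, with 3 positive and 1 negative, and was 0.27 after median centring.

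The β-tubulin gene and the main α-tubulin gene were positive on arrays 1 and 2, and the minor α-tubulin gene was negative on array 1. TUB2 (YFL037W), the only β-tubulin gene, had nearly the same deposited value on arrays 1 and 2 (0.46 and 0.41), and −0.13 on array 4. Its mean on arrays 1 and 2 was 0.44 ± 0.26 (moderated SE, 2 arrays, limma adjusted p = 0.437). With array 1 turned, as the Cy5 over Cy3 reading requires, the mean was −0.026. TUB1 (YML085C), the main α-tubulin gene, had 0.24 and 0.0023 on arrays 1 and 2. TUB3 (YML124C), its minor copy, had −1.62 on array 1, the lowest cytoskeleton value on that array, and no other value. The copies are closely similar in sequence, so their spots can cross-hybridise, and with 1 value for TUB3 the difference has no replicate check.

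All 11 cytoskeleton genes on array 4 were negative there, from −3.32 (CDC10) to −0.13 (TUB2), where 80.8% of all ORFs with a value on array 4 were negative. Their median on array 4 was −0.91, close to the −0.93 of all ORFs on it, with 5 of the 11 below that median and 6 above. On all 3 arrays, 5 of the 11 were negative throughout (COF1, CAP2, ARC19, MLC2 and CDC10), beside 45.4% of the 723 ORFs, and 0 were positive throughout, beside 7.61%. With array 1 turned, 1 of the 11 (TPM1) was negative throughout, beside 10.8% of the ORFs.

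On the deposited scale, the values of cytoskeleton genes on arrays 1 and 2 ran with the length of the gene, as those of all ORFs did. On array 4, Spearman's rho with length was 0.047 across the 810 ORFs with a length and 0.527 across the 11 cytoskeleton genes. Coding length, introns included, was under 1000 bases for 9 of the 25 genes on arrays 1 and 2, and all 9 had negative means, beside 93.4% of all ORFs of that length. From 1000 to 1500 bases, 5 of 9 were positive, beside 46% of all ORFs, and from 1500 to 2000 bases all 5 were positive, beside 66.2%. Across the 25 genes, Spearman's rho between mean and length was 0.848 (Pearson's r with log2 length 0.724), and across all 2716 ORFs with a length on both arrays it was 0.507 (r 0.408). These are correlations across genes that share the same arrays. With array 1 turned, 8 of the 9 genes under 1000 bases were positive and all 5 from 1500 to 2000 bases were negative. The shares of all ORFs of these lengths with array 1 turned were not counted. Spearman's rho with array 1 turned was −0.561 across the 25 genes (Pearson's r −0.548) and −0.245 across all ORFs (r −0.193). By their deposited means, PFY1 (590 bases), COF1 (611), MLC2 (492) and the small Arp2/3 subunits ARC15 (465), ARC18 (537) and ARC19 (516) were short and negative. ABP1 (1779), AIP1 (1848) and SAC6 (2040) were long and positive. The longest of the 25, MYO5 (3660), did not continue the order, with a mean of −0.08. Of the genes read on array 1 only, MYO2 (4725 bases, −1.37), MYO3 (3819, −0.54) and TUB3 (1636, −1.62) were long and negative. MLC1 (450, −1.31) and CAP1 (807, −0.33) were short and negative. Across all 30 cytoskeleton genes on array 1, Spearman's rho was 0.468 (Pearson's r 0.350), beside 0.347 (r 0.273) across all ORFs there. After a linear trend on log2 length was taken out of each array, ABP1 had 1.09 (limma adjusted p = 0.0929) and SAC6 had 1.16 (adjusted p = 0.108). PFY1 had −0.70 (adjusted p = 0.278) and TUB2 had 0.35 (adjusted p = 0.605). With a smooth trend taken out instead, ABP1 had 0.90 (limma adjusted p = 0.255) and SAC6 had 1.01 (adjusted p = 0.326). PFY1 had −0.63 (adjusted p = 0.400) and TUB2 had 0.21 (adjusted p = 0.680). COF1 then had −0.41, MLC2 −0.39 and AIP1 0.23. Of the Arp2/3 genes ARP2 was then the lowest at −0.28, before ARC18 and ARC19 (both −0.23), ARC35 (−0.19) and ARC15 (−0.16). The part of length in the single values beyond this was not tested.

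**Figure D3:**
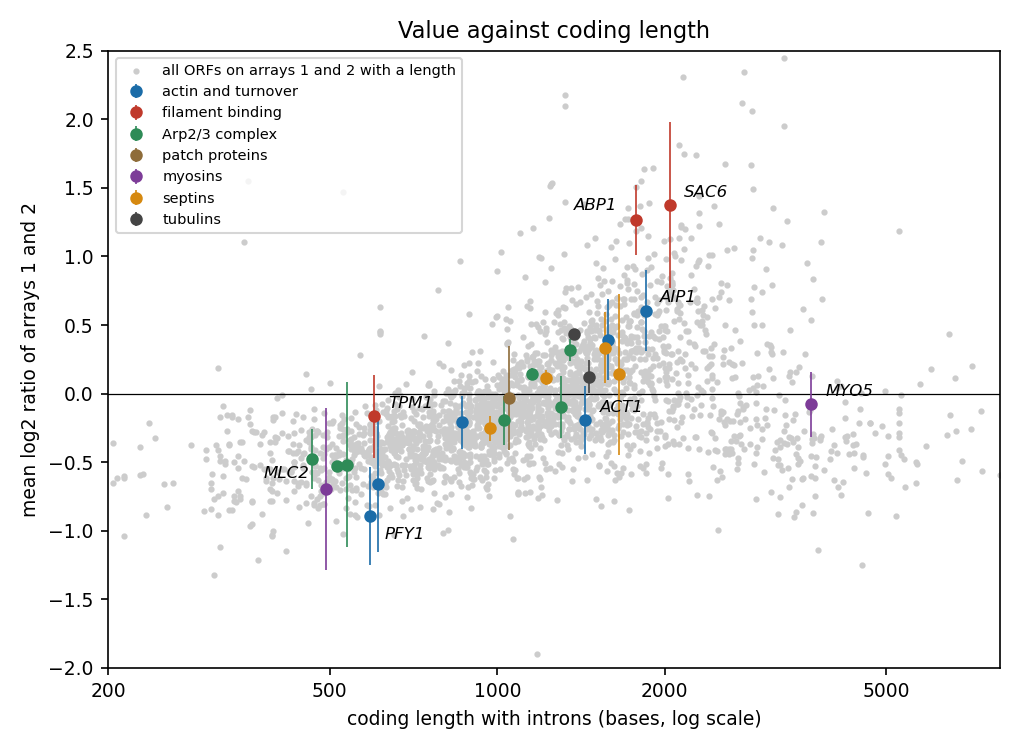
Mean log2 ratio of arrays 1 and 2 (vertical) against coding length with introns (horizontal, log scale) for 25 cytoskeleton genes, with bars from the lower to the higher of the 2 array values, over all ORFs with a length on both arrays (grey, cropped at the axes). All 9 genes under 1000 bases lie below 0, and the 5 between 1500 and 2000 bases lie above it.

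Genes that regulate or assist the cytoskeleton were counted from 5 further lists, with 107 genes in all, of which 46 had values on arrays 1 and 2 and 0 were called there by limma, beside 0.887% of all ORFs. At an unadjusted p under 0.05 there were 8, beside 13.5%. Polarity and actin assembly regulators (the GTPases that place actin, their exchange factors and effectors) had 12 of 28 genes on both arrays. Of these, 10 were negative on both and 0 positive on both, with a median of −0.30. After median centring 5 were negative on both, and the median was −0.15. The median of all ORFs was −0.18 as deposited and −0.04 after centring. As deposited, 47.1% of all ORFs were negative on both and 20.5% positive on both. The median length of the 12 genes was 786 bases. CDC42, a GTPase of cell polarity, had −0.81, −0.28 and −1.11 on arrays 1, 2 and 4. RHO1, the GTPase that also activates the glucan synthase, had −0.03, −0.27 and −0.81. BEM1, a polarity scaffold, had −0.10, −0.36 and −3.59, and ROM1, an exchange factor for Rho1, had −1.005, −0.02 and −2.19. SCP1, an actin bundling protein related to calponin, had −0.28, −0.40 and −2.11. All 5 were negative on each array, beside 45.4% of the 723 ORFs with values on arrays 1, 2 and 4. The 5 genes had limma adjusted p of 0.868 to 0.971.

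Endocytic partners of the patches had 10 of 19 genes on both arrays, with 3 positive on both and 6 negative on both. Of all ORFs, 20.5% were positive on both and 47.1% negative on both. The median of the 10 genes was −0.13, or 0.013 after median centring. RVS167, an amphiphysin that helps to cut vesicles from the membrane, had 1.63 and 0.54 on arrays 1 and 2, with a mean of 1.08 (limma adjusted p = 0.216). Clathrin light chain CLC1 had −0.04, −0.76 and −2.26 on arrays 1, 2 and 4, and the epsin genes had −0.03, −0.20 and −1.37 (ENT1) and 0.44, 0.31 and −1.66 (ENT2). YAP1801, a clathrin assembly protein, had −0.09, 0.05 and −2.78. Septin partners and cytokinesis genes had 6 of 16 genes on both arrays, with means from −0.40 (SYP1) to 0.29. Of these, 1 was positive on both and 1 negative on both, beside the same 20.5% and 47.1% of all ORFs.

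The list for the chaperonin CCT, which folds actin and tubulin, held its subunit genes and PLP2, which encodes no subunit and had no value. It had 6 of 9 genes on both arrays, 4 positive on both and 1 negative on both, beside 20.5% and 47.1% of all ORFs. The median was 0.49, or 0.64 after median centring. The subunit gene CCT6 had 1.01, 0.38 and −0.26 on arrays 1, 2 and 4. These 6 genes were 1584 to 1707 bases long, a length at which all ORFs also had a positive median (0.18 from 1500 to 2000 bases). Microtubule motors, associated proteins and tubulin folding factors, prefoldin among them, had 13 of 36 genes on both arrays. Of these, 1 was positive on both and 9 were negative on both, beside 20.5% and 47.1% of all ORFs. After median centring 2 were positive on both and 6 negative on both, with a median of −0.24. Their median as deposited was −0.39 and their median length 939 bases, where ORFs of 500 to 1000 bases had a median of −0.33. The smallest limma adjusted p was 0.341 in CCT and 0.305 in the microtubule list, and the difference between the lists was not tested.

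**Figure D4:**
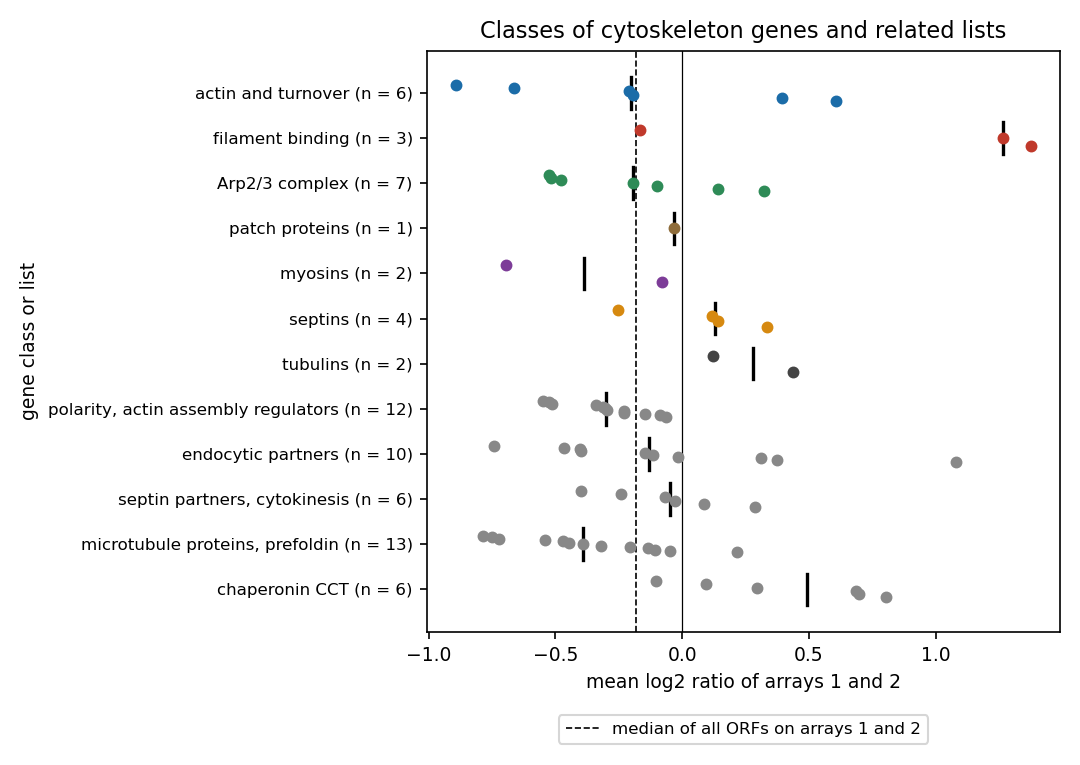
Mean log2 ratio of arrays 1 and 2 (horizontal) for each gene of the 7 cytoskeleton classes (coloured) and 5 related lists (grey), with the median of each as a short bar and the median of all 2818 ORFs as a dashed line. The Arp2/3 genes spread over both sides of 0, and the 12 polarity genes are all below it.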

How the data were processed

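The deposited table holds 1 log2 ratio per ORF and array, made by the authors from 2-colour arrays, per the labels. The sources used here do not give the scanner, background correction, normalization or direction. The log base follows from the values, since 100% of them, taken as powers of 2, fall on steps of 0.0001 (tolerance 0.01 of a step). ORFs were named through RefSeq assembly R64, with 5654 matched by locus tag, 57 by synonym and 496 unmatched, and its coordinates served for lengths only. Two-sided limma tests (version 3.58.1, R 4.3.3) were fitted over all ORFs, once on arrays 1 and 2 (mean) and once on all 3 arrays (caspofungin and dye terms), each with 1 residual degree of freedom, with Benjamini-Hochberg adjustment and a threshold of 0.05. The SEs are those of limma, moderated over all ORFs, and do not give the spread of a single gene over its arrays. On all 3 arrays the SE was 0.73 for every ORF, and on arrays 1 and 2 it was at least 0.26. Arrays that share a culture are counted as independent, so p-values measure spread that is partly technical. The number of arrays limits the precision. The fits were tested on simulated data. Values are given for every cytoskeleton gene that has one. Genes of the related lists are named where all 3 arrays measured them, or where their mean was at least 1 in size with the same sign on arrays 1 and 2. The members and lists were chosen with earlier results of these data known. Alternatives covered centring, spread, dye term, shared culture, sign of array 1, length trends and single arrays left out. The smooth length trend (loess, span 0.3) was added after the data were seen.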

Additional observations from a re-analysis of the deposited data

How the results depend on the processing

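With 3 arrays the number of cytoskeleton genes called was 0 under every alternative run, by limma, while 0 to 3 had an unadjusted p below 0.05. With arrays 1 and 2 it was 2 after median centring and 2 after centring with equal spread (ABP1 and SAC6), and 0 otherwise. The median over arrays 1 and 2 was 0.067 after median centring, 0.045 with equal spread, and −0.21 over the ORFs on all 3 arrays. The 8 genes negative on both arrays became 5 after median centring, 5 with equal spread and 4 with array 1 turned. Over the ORFs on all 3 arrays (where 11 cytoskeleton genes remain) they were 5. With the linear length trend removed they were 8, and with the smooth one 9. The shares of all ORFs negative on both arrays under these settings were not counted. Each array is itself a ratio of the treated and untreated parts of a culture, so the 2 conditions are already paired within every value. No further pairing was modelled, and the arrays form 1 group. Leaving out each array moved the 3-array median between −0.73 and −0.08 (the latter without array 4 and over 25 genes, where the same 11 genes give −0.21), the value of ARP3 between −0.15 and 0.32, and that of SRV2 between −0.12 and 0.39.

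Means on arrays 1 and 2 changed sign in these cases, and the cause was not tested. Array 1 turned gave ABP1 −0.25, ACT1 0.25, AIP1 −0.29, ARC15 0.22, ARC18 0.60, ARC19 0.021, ARP3 −0.080, CAP2 0.19, CDC10 0.089, CDC12 −0.057, CDC3 −0.26, COF1 0.50, MLC2 0.59, MYO5 0.24, PFY1 0.36, SAC6 −0.60, SHS1 −0.59, SRV2 −0.30, TUB1 −0.12 and TUB2 −0.026. Median centring gave ARP2 0.048, END3 0.11 and MYO5 0.067. Equal spread gave ACT1 0.045, CAP2 0.0028 and MYO5 0.17. The linear length trend gave SHS1 −0.0090 and TPM1 0.020, and the smooth one CDC12 −0.022, SHS1 −0.19, TPM1 0.092 and TUB1 −0.14. Fitted values over 3 arrays changed sign as follows. Array 1 turned gave ARC18 0.40, ARP3 −0.27, CAP2 0.069, COF1 0.022, SRV2 −0.41 and TUB2 −0.16. Median centring gave CAP2 0.028 and TPM1 0.084, arrays 1 and 2 averaged gave ARP3 −0.11, and the smooth length trend gave ARP3 −0.23, SRV2 −0.077 and TUB2 −0.061. Leaving out array 1 gave ARP3 −0.15 and SRV2 −0.12, and leaving out array 2 gave ARP3 −0.067. The other values kept their sign and their side of the threshold, except ABP1 and SAC6 as given.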

Other observations

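The relation of the values to coding length was not a straight line over all ORFs. On arrays 1 and 2 the median mean value was −0.53 for 215 ORFs under 500 bases, −0.33 from 500 to 1000 bases, −0.03 from 1000 to 1500, 0.18 from 1500 to 2000 and 0.21 from 2000 to 3000. It was −0.32 for the 172 ORFs of 3000 bases or more. Arrays 1 and 2, of opposite dye orientation, were both highest between 1500 and 3000 bases. Array 1 had medians of 0.22 and 0.13 in these 2 classes and −0.59 above them, and array 2 had 0.03, 0.13 and −0.02. On array 4 the medians ran from −1.44 under 500 bases to −0.54 from 1000 to 1500 bases and −1.41 above 3000 bases.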
